A study of Mus musculus with 2 samples.

Results

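The cells described here were acinar cells of the mouse parotid gland (PG) in which no Etv1 transcript was counted. A droplet barcode was taken as such a cell when at least 200 genes were detected, at most 5% of its UMIs (unique molecular identifiers, each counting 1 captured transcript) came from the mitochondrial genome, Amy1, Bpifa2, Smr3a, Pip and Car6 together made up at least 60% of its UMIs, Dcpp1, Dcpp2 and Dcpp3 less than 15%, Klk1 and Fxyd2 less than 1%, and Etv1 had 0 UMIs. The rule selected 461 of 8664 kept cells, of which 244 were among the 3378 control cells (7.22%, 95% interval 6.37 to 8.15%) and 217 among the 5286 irradiated (IR) cells (4.11%, 3.59 to 4.68%). The cells were thus chosen by their levels of the 5 rule genes, Dcpp, Klk1, Fxyd2 and Etv1, and those levels are given below as description.

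Acinar cells are the secretory end pieces of the salivary gland. They make salivary proteins on the rough endoplasmic reticulum (ER), pack them into granules that are released when nerves raise calcium, and move chloride and water into the lumen. The mouse parotid is a serous gland, whose acinar cells are known for amylase (Amy1) and parotid secretory protein (Bpifa2), and Etv1 is a transcription factor of the ETS family. After irradiation of the head and neck the loss of saliva is a lasting side effect.

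Both groups were wild-type (WT) female C3H mice. The IR mice received 6 Gy a day to the head and neck on 5 consecutive days, 30 Gy in total, at 6 to 10 weeks of age. Glands were collected 10 months later, at an age of about 1 year, and those of 2 mice were pooled into 1 10x Genomics Chromium library per group. With 1 library per group, irradiation, mice and library cannot be told apart and no test between conditions could be made, so genes were called by size. Intervals are exact 95% intervals and cover counting error only.

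The control cells held 2184860 UMIs and the IR cells 1925429 UMIs, 11.5% and 9.46% of the UMIs of all kept cells. UMIs per cell ran from 1162 to 52308 with a median of 6984.5 in the control library, and from 1218 to 37830 with a median of 7037 in the IR library. Most of these UMIs came from few genes. A set of 75 genes, called abundant below, held the listed secreted proteins, mitochondrial genes, haemoglobins, Gm42418 and AY036118 whatever their level, and 2 more genes with at least 1% of UMIs. It took 88.01% of UMIs in control and 86.4% in IR cells, which left 261979 and 260929 UMIs for all other genes, a median of 771.5 and 900 per cell. The median cell had 490 genes detected in control and 548 in IR cells.

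Acinar genes that did not enter the rule were then looked up. Kcnn4, the calcium-activated potassium channel of acinar cells, had a UMI in 69.3% of the control and 64.98% of the IR cells, compared with 6.46% and 7.76% of B-cells, whose median depths were 2531 and 2175 UMIs. Kcnn4 is also known in lymphocytes, so B-cells are no clean measure of its free RNA. With every cell thinned to 1000 UMIs the shares of cells with Kcnn4 were 15.98% and 15.2%, and 2.60% and 3.06% in B-cells. The water channel Aqp5 had a UMI in 69.7% and 73.7% of the cells and in 2.42% and 2.86% of B-cells (18.03% and 17.1% against 0.411% and 1.39% after thinning). Per 10000 UMIs of the rule genes, Aqp5 had 2.62 (control) and 3.16 (IR) UMIs in the cells and 2.13 and 2.59 in B-cells. Kcnn4 had 2.59 and 2.57 against 5.56 and 9.52. On that scale Kcnn4 was lower than in B-cells. Aqp5 was near the B-cell values, which rested on only 23 and 22 UMIs. Since the rule chose droplets rich in secretory RNA, the shares of cells do not test the label. The part of free acinar RNA in them was not tested.

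Markers of whole cells were scarce. The nuclear RNA Malat1 had a UMI in 45.1% of the control and 25.8% of the IR cells, compared with 98.9% of B-cells in each library, and after thinning in 14.8% and 10.6% against 99.6% and 99.3%. Mitochondrial RNA made up 0.119% of UMIs in control and 0.231% in IR cells, against 2.72% and 3.03% in B-cells. The acinar cells held more secretory RNA by the rule, with 4067 Bpifa2 UMIs per control acinar cell and 91.2 per control B-cell, and 4530 and 83.1 in the IR library. The mix of rule genes was near that in B-cells. Of the summed UMIs of the rule genes, Bpifa2 made up 63.6% in control acinar cells and 62.8% in control B-cells, and Smr3a 19.5% and 20.5%. In the IR library Bpifa2 made up 73.97% and 71.8%, and Smr3a 10.4% and 10.96%. Car6 was a smaller part in the acinar cells, 3.22% against 4.09% (control) and 2.04% against 3.06% (IR). Whether all of these barcodes held whole cells was not tested.

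Cells just inside the threshold, with rule genes at 60 to 62% of UMIs, numbered 20 control and 19 IR cells, at median depths of 3450 and 6293 UMIs. Just outside, at 58 to 60%, were 19 and 13 cells with 4330 and 3666 UMIs. No cell was lost through Dcpp or through Klk1 and Fxyd2 alone. The 2 filters removed 13 control and 5 IR barcodes that otherwise met the rule, and of 12 barcode sequences shared by the libraries none belonged to these cells.

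The absence of Etv1 followed the depth. Of all cells that met the rule apart from Etv1, 372 control and 289 IR cells, those with 1000 to 4000 UMIs had no Etv1 UMI in 86.7% (control, 75 cells) and 93.9% (IR, 49 cells). At 8000 to 16000 UMIs the shares were 76.1% (88 cells) and 83.3% (78 cells). At 32000 UMIs or more they were 1.56% (64 cells, interval 0.0396 to 8.40%) and 14.8% (27 cells, 4.19 to 33.7%). The level of Etv1 lay between 28.9 and 45.6 counts per 1e6 UMIs (CPM) in the control bins below 32000 UMIs and at 130 CPM above. In the IR library it lay between 19.8 and 54.0 CPM below and at 130 CPM above. Cells with 1 Etv1 UMI, just outside the rule, numbered 50 and 32 with median depths of 9324 and 7372.5 UMIs, whereas those with 2 or more (78 and 40) had medians of 44298 and 40712 UMIs. At the depth of these cells an Etv1 count of 0 does not show that the gene was silent.

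Bpifa2, a bactericidal/permeability-increasing-fold protein and the main parotid secretory protein, was the most abundant transcript in both libraries (chr2:154008265-154016079 in GRCm38). It made up 45.4% of all UMIs in control and 51.1% in IR cells. Single cells ran from 12.5 to 66.5% with a median of 46.4% in the control, and from 19.1 to 72.1% with a median of 51.6% in the IR library. The 2 ranges overlapped almost entirely, and the summed share in the IR library was 1.12 times the control share. That total includes Smr3a, whose share was lower in the IR library. Out of UMIs other than Smr3a, the Bpifa2 ratio was 1.07 in cells with Smr3a below 1% of UMIs. It was 1.03 in those at 8% or more.

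Smr3a, which encodes a submaxillary gland androgen regulated protein of the proline-rich family (chr5:88002549-88008534, plus strand), varied far more from cell to cell. It took 13.9% of UMIs in control and 7.16% in IR cells, 0.514 times the control share. Single cells ran from 0.0502 to 57.9% with a median of 7.99% (quartiles 2.68 and 19.0%) in the control library. In the IR library they ran from 0.0252 to 35.1% with a median of 4.69% (quartiles 0.296 and 11.8%). The ranges overlapped, but the lower quartile lay far lower in the IR library. B-cells, whose Smr3a is free RNA, held 29.7 Smr3a UMIs per control and 12.7 per IR barcode.

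Amy1 (alpha-amylase, chr3:113555710-113606699, minus strand) stood at 6.87% of UMIs in control and 6.21% in IR cells, a ratio of 0.904. It has near-identical gene copies, among which reads may be split. Pip (prolactin induced protein, chr6:41847535-41852065) stood at 2.84% and 3.19%, a ratio of 1.13. Out of UMIs other than Smr3a, Pip was 3.43% and 3.77% in cells with Smr3a below 1%. In those at 8% or more it was 3.37% and 3.39%. Car6, the secreted carbonic anhydrase (chr4:150187015-150201332), stood at 2.30% and 1.41%, a ratio of 0.613. Car6 ran from 0.210 to 4.66% with a median of 2.204% over control cells, and from 0.00485 to 4.76% with a median of 1.31% over IR cells. In B-cells Car6 was 4.09% of the 5 rule genes (control) and 3.06% (IR), so it was the smaller part in the IR library there too.

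**Figure D1:**
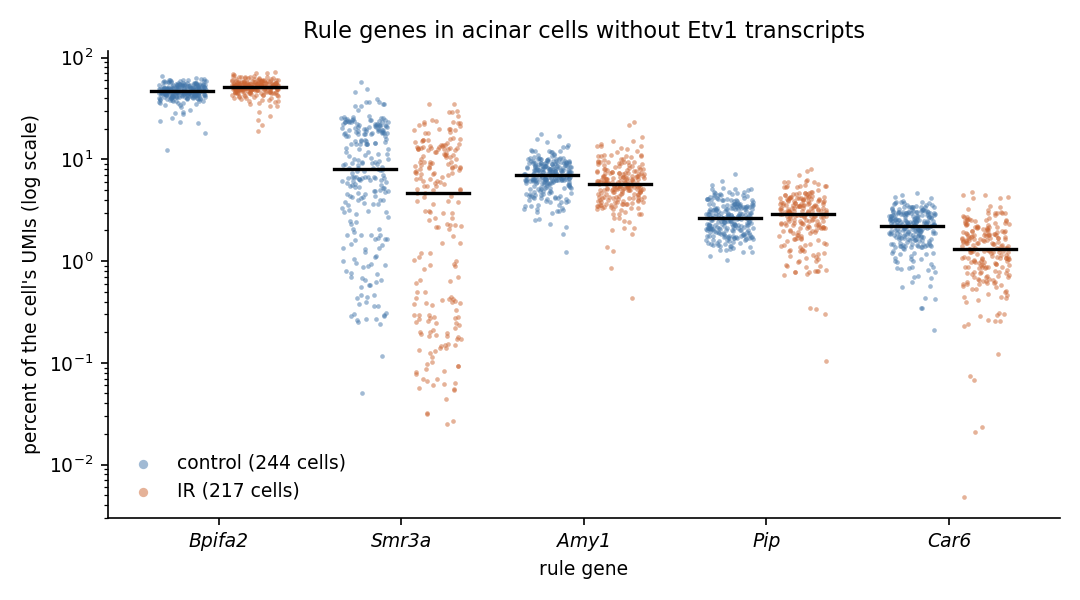
Share of each cell's UMIs (percent, log scale) taken by the 5 rule genes in 244 control (blue) and 217 IR (orange) cells; each point is 1 cell and the black bar is the median cell. Bpifa2 ran from 12.5 to 72.1%, while Smr3a spread from 0.0252 to 57.9%, with 79 of the IR cells below 1%.

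Secreted proteins outside the rule added 11.7% of UMIs in control and 11.98% in IR cells. Of the 25 genes listed, 22 had at least 1 UMI, and Smgc, Muc5b (a gel-forming mucin) and Spp1 (osteopontin) had none in either library. Chia1 (acidic chitinase) was the most abundant at 7.13% and 7.73% of UMIs, a ratio of 1.08, and every cell had it. Out of UMIs other than Smr3a it was 8.73% and 8.68% in cells with Smr3a below 1%. In those at 8% or more it was 7.97% and 7.91%. Dnase1, a secreted nuclease, stood at 2.37% and 1.71%, a ratio of 0.720, with single cells from 0.177 to 6.37% (median 2.39%) in the control and from 0.246 to 5.83% (median 1.62%) in the IR library. Cst10 (chondrocyte-derived cystatin) stood at 1.54% and 1.85%, a ratio of 1.21. Out of UMIs other than Smr3a it was 1.78% and 1.95% in cells with Smr3a below 1%. In those at 8% or more it was 1.91% and 2.08%. The unnamed transcripts BC037156 (2.58% and 2.19%) and 2310057J18Rik (2.05% and 2.96%) were singled out for abundance after their values were seen.

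Odam, first described as an odontogenic ameloblast-associated protein, showed a larger gap. It had 389 UMIs in control and 1156 in IR cells, 0.0178% and 0.0600% of UMIs, a ratio of 3.37 (interval 3.004 to 3.79). Odam was detected in 23.8% of the control and 44.2% of the IR cells, and the median cell had none in either library. The highest control cell had 0.310% and the highest IR cell 0.575%, and no single cell held more than 13.8% of a library's Odam UMIs. In B-cells Odam had 35 UMIs (control) and 83 UMIs (IR), a ratio of 2.36 (1.57 to 3.61) per UMI outside the abundant genes, against 2.98 in the acinar cells on that scale. Agt, angiotensinogen, had 177 and 266 UMIs, a ratio of 1.71 (1.40 to 2.07). Esp8, an exocrine gland-secreted peptide, had 138 and 257 UMIs, a ratio of 2.11 (1.71 to 2.62). Bpifb1 had 83 and 373 UMIs, but 52.0% of those in the IR library came from 1 cell.

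The spread of Smr3a was then used to describe how the cells differed among themselves. Cells with Smr3a below 1% of UMIs numbered 37 of 244 in the control (15.2%, interval 10.9 to 20.3%) and 79 of 217 in the IR library (36.4%, 29.999 to 43.2%). Those at 8% or more numbered 122 and 82, and 85 and 56 lay between. These limits were set after the values were seen and mark ranges, not cell types: 36 control and 16 IR cells lay between 0.5 and 2%. The low cells were shallower, with medians of 7162 and 6665 UMIs against 10120 and 7961 at 8% or more. Smr3a is itself a rule gene, so cells low in it met the rule through the other 4, and with the rule genes required to reach 70% the shares below 1% were 3.17% and 18.6%.

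Per barcode, cells below 1% held 34.1 Smr3a UMIs (control) and 16.9 (IR), near the 29.7 and 12.7 of B-cells. Cells at 8% or more held 2313 and 1430. By the rule the low cells had to be rich in the other 4 rule genes, and they held 4250 and 4552 Bpifa2 UMIs per cell, against 4997 and 4754 in the high cells.

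For every other gene, levels in the low cells were set against those in the high cells of the same library, with Smr3a left out of the totals. Of 313 genes with enough UMIs, 5 (1.6%) were at least 1.5 times higher in the low cells of both libraries: Odam, Mup5, Scgb1b27, Scgb2b27 and Prol1. Malat1, Fos and Jun, 3 genes (0.958%), were lower by as much in both. The 5 higher genes encode secreted proteins: Mup5 is a major urinary protein that carries small hydrophobic ligands, Scgb1b27 and Scgb2b27 are secretoglobins (androgen-binding protein subunits), and Prol1 is a proline-rich protein of tears and saliva. Mup5 and the secretoglobins belong to families of near-identical copies, so reads may be shared with relatives.

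Odam, Smr3a and Prol1 sit near each other on chromosome 5 and the secretoglobins side by side on chromosome 7 (GRCm38). Odam (chr5:87885029-87894174) ends 108 kb before Smr3a starts, and Prol1 (chr5:88317312-88328814) starts 309 kb after Smr3a ends, all on the plus strand. Scgb2b27 (chr7:34011921-34013942, minus strand) and Scgb1b27 (chr7:34021483-34022881, plus strand) lie 7.54 kb apart and are read in opposite directions. Mup5 lies at chr4:61831319-61835233 on the minus strand. The promoters of Smr3a and of 4 of the 5 genes are shown because these genes were called higher in the cells poor in Smr3a. Each runs from 250 bases before to 50 bases after the annotated start (RefSeq, GRCm38.p6), 5′ to 3′ on the gene's strand, with any TATAAA, read on either strand (TTTATA), in capitals.
Smr3a, chr5:88002275-88002574, plus strand: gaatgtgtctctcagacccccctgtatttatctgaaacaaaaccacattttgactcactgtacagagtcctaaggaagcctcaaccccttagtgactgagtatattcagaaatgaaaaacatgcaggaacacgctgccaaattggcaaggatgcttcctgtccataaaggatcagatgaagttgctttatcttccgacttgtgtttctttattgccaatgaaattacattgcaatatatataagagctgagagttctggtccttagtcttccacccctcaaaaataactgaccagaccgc
Odam, chr5:87884760-87885059, plus strand: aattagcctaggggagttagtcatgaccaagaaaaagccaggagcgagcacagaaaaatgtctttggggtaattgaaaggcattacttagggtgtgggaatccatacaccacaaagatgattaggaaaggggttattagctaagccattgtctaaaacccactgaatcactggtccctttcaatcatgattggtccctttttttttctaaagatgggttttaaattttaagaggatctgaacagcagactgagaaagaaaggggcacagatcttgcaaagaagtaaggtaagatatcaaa
Prol1, chr5:88317062-88317361, plus strand: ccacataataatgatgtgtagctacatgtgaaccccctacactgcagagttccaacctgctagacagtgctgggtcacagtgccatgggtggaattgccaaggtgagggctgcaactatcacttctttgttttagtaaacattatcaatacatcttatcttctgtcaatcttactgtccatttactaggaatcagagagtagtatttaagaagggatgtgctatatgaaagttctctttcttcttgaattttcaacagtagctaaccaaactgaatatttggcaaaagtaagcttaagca
Scgb1b27, chr7:34021231-34021530, plus strand: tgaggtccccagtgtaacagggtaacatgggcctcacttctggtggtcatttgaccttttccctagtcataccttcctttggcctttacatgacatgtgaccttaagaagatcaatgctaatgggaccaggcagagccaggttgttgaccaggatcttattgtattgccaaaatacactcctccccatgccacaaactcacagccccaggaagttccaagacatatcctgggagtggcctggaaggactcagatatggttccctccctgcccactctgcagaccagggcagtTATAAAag
Scgb2b27, chr7:34013893-34014192, minus strand: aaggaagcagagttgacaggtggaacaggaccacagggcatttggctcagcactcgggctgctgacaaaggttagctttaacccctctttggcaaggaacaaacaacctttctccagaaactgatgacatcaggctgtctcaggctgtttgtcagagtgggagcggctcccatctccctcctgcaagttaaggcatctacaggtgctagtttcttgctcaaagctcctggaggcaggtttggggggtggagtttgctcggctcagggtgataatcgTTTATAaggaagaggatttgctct
Scgb1b27 held TATAAA and Scgb2b27 TTTATA, both within the 50 bases after the annotated start. The windows of Smr3a, Odam and Prol1 held neither. Over 32851 RefSeq promoters of this length 13.6% held the motif on either strand, and a match is no more than those letters in this window.

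Under some other limits Mup5 was further apart, but at these Odam was the furthest apart of the 5. It had 197 UMIs in the 37 low and 82 in the 122 high control cells, 0.0638% and 0.00717% of UMIs other than Smr3a, a ratio of 8.90 (interval 6.84 to 11.7). In the IR library it had 649 UMIs in 79 low and 196 in 82 high cells, 0.0987% and 0.0276%, a ratio of 3.58 (3.04 to 4.22). The control ratio was 26.5 with equal numbers of cells per depth bin, and the IR ratio 37.0 with high cells taken at 15% or more. Odam UMIs were found in 43.2% of the low and 12.3% of the high control cells, and in 55.7% and 31.7% of the IR cells. Low cells stood above high cells in both libraries, although part of the low cells had no Odam at all. Between libraries, Odam was higher in the IR cells within each range of Smr3a, 1.55 times (1.32 to 1.82) in the low and 3.85 times (2.96 to 5.04) in the high cells.

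Mup5 had 426 and 205 UMIs in the low and high control cells, a ratio of 7.69 (interval 6.50 to 9.13), and 688 and 262 in the IR cells, a ratio of 2.84 (2.46 to 3.28). In the control 56.6% of the UMIs of the low cells came from 1 cell, and without the top cells the ratios were 4.79 and 3.19. Scgb1b27 had ratios of 4.56 (4.19 to 4.96) and 3.31 (2.98 to 3.67), and 2.51 and 3.44 without the top cells, of which the control one held 49.8% of the UMIs of the low cells. Scgb2b27 had ratios of 4.45 (4.03 to 4.91) and 2.51 (2.30 to 2.75), and 2.58 and 2.68 without the top cells, where the control one held 46.4%. These 3 genes were thus still more than 1.5 times higher in the low cells without their top cells. Prol1 had the smallest gap, 2.44 (1.996 to 2.96) in the control and 1.63 (1.35 to 1.98) in the IR library, and the IR ratio was 0.954 where the high cells were taken at 15% or more.

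**Figure D2:**
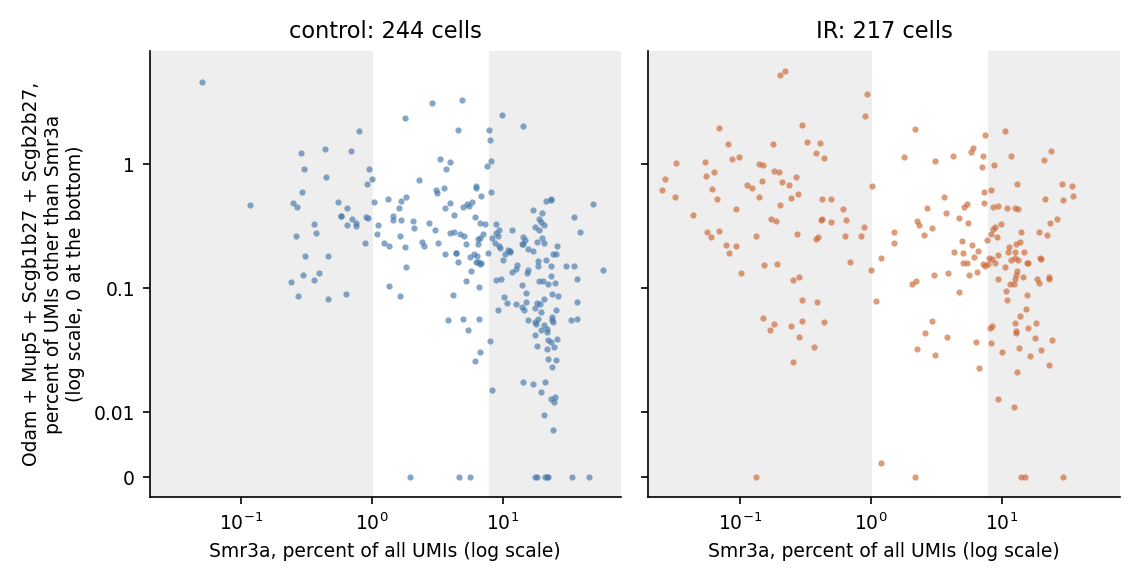
Each point is 1 cell: the horizontal axis gives Smr3a as percent of all UMIs (log scale) and the vertical axis the summed Odam, Mup5, Scgb1b27 and Scgb2b27 as percent of UMIs other than Smr3a (log scale, with 0 at the bottom), for 244 control and 217 IR cells. Grey marks cells below 1% and at 8% or more Smr3a. Low values of the sum were frequent among cells rich in Smr3a, but high values were found over the whole range.

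Of the abundant genes outside the rule, BC037156 had low over high ratios of 1.35 (control) and 1.28 (IR), 2310057J18Rik of 1.31 and 1.05, Dnase1 of 1.11 and 1.07, Chia1 of 1.10 in both and Cst10 of 0.932 and 0.937. Crisp1, a cysteine-rich secretory protein outside the abundant set, had 0.884 and 0.910. The other rule genes, whose ratios the rule itself constrains, had 0.955 and 0.997 for Bpifa2, 1.10 and 0.865 for Amy1, 1.02 and 1.11 for Pip, and 0.947 and 1.11 for Car6. The lower genes were counted from few UMIs. Malat1 had 23 UMIs in the low and 482 in the high control cells, a ratio of 0.177 (0.111 to 0.268), and 64 and 276 in the IR cells, a ratio of 0.251 (0.188 to 0.330), with 52.2% and 53.1% of the UMIs of the low cells in 1 cell each. The high cells were as uneven, since 4 of them held 354 of the 482 control (73.4%) and 213 of the 276 IR UMIs (77.2%). Without the 4 top cells of each set the ratios were 0.149 and 0.207. Fos and Jun, immediate early transcription factors, had ratios of 0.442 and 0.630 in the control and 0.615 and 0.621 in the IR library. When equal numbers of cells were taken from each depth bin, only 154 genes had enough UMIs, and none of the 3 was called. There the ratios were 0.242 (control) and 0.146 (IR) for Malat1, 0.443 and 0.678 for Fos, and 0.527 and 0.718 for Jun, while the 5 higher genes were the same.

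**Figure D3:**
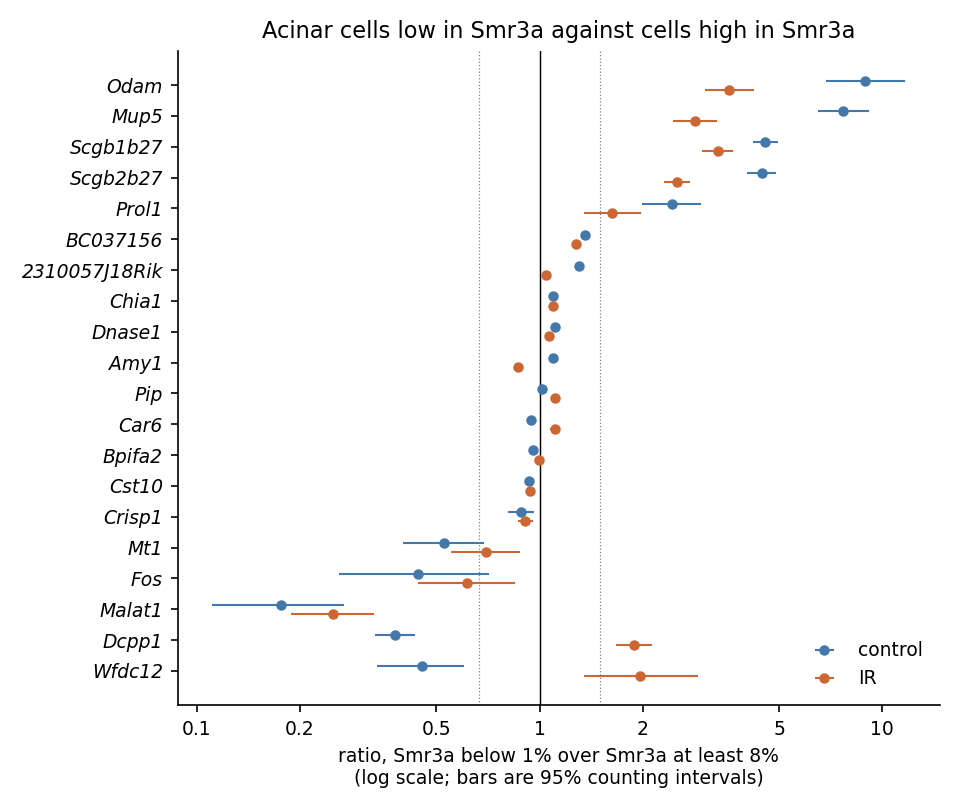
Ratio (log scale) of the level in cells with Smr3a below 1% of UMIs to that in cells at 8% or more, for named genes in the control (blue, 37 and 122 cells) and the IR library (orange, 79 and 82 cells); bars are 95% counting intervals and dotted lines mark 1.5 and 0.667. The 5 genes at the top stood to the right of 1.5 in both libraries, Bpifa2 and Amy1 near 1, and Malat1 to the left.

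The same 5 genes were looked up in the cells that met the rule but had Etv1 UMIs, which did not enter the choice of these genes. They come from the same libraries, rule genes and Smr3a limits, so they are no independent check. Of these, 9 of 128 control (7.03%) and 10 of 72 IR cells (13.9%) had Smr3a below 1%. Low over high ratios were 6.39 (control) and 7.504 (IR) for Odam, 11.96 and 24.5 for Mup5, 2.64 and 3.04 for Scgb1b27, 2.30 and 1.91 for Scgb2b27 and 2.27 and 0.812 for Prol1. In both libraries all of them but Prol1 had the direction seen in the cells without Etv1 UMIs. The low cells were few and much shallower, with medians of 9594 against 40362 UMIs in the control and 15733 against 25701 in the IR library, and the part of depth was not tested. Single cells held 59.2% (control) and 83.6% (IR) of the Mup5 UMIs of the low cells and 35.8% and 33.5% of their Odam UMIs, and Odam was found in 3 of 9 and 7 of 10 low cells. The top cells held 28.3% and 43.3% for Scgb1b27 and 27.7% and 42.9% for Scgb2b27.

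Which genes outside the abundant set differed between the IR and control cells was asked next, on the scale of counts per 1e6 UMIs outside the 75 abundant genes (non-secretory CPM). Of 729 genes with at least 100 UMIs, 28 (3.84%) were at least 1.5 times higher and 45 (6.17%) at most 0.667 times as high in the IR cells. The median gene had a ratio of 1.02. With counts per 1e6 UMIs of all genes the calls were 93 higher and 14 lower. That scale moves the median log2 ratio from 0.03 to 0.21, since the secretory genes took a smaller share in the IR cells, and ratios below are on the non-secretory scale unless stated. The change of each gene in B-cells of the same 2 libraries is given where it helps a reader to see what the libraries share.

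The highest ratios belonged to 1810011O10Rik, with 49 UMIs in control and 126 in IR cells (2.58, interval 1.84 to 3.67), and to Psmb2, a proteasome subunit, with 34 and 76 UMIs (2.24, 1.48 to 3.47). They were followed by Tvp23b, a Golgi vesicle protein (2.12), and Kdelr2, the receptor that returns chaperones from the Golgi to the ER, with 39 and 78 UMIs (2.01, 1.35 to 3.03). Kdelr2 was detected in 11.9% of the control and 29.0% of the IR cells. The other 8 of the 12 highest were Ly6a, a surface antigen of the Ly6 family (1.99, with 31.5% of the IR UMIs in 1 cell and a B-cell ratio of 0.437), Id2, an inhibitor of helix-loop-helix factors (1.98), Pop5, a subunit of ribonuclease P (1.93), Hnrnpk and Srsf3, which bind RNA (1.84 and 1.74), Klf2, a Krüppel-like transcription factor (1.81, with a B-cell ratio of 1.49), Hsp90b1, an ER chaperone (1.79), and Clic1, a chloride intracellular channel protein (1.74). In B-cells the ratios were 1.03 for Psmb2, 1.01 for Tvp23b and 1.12 for Kdelr2.

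Crisp1 had the most UMIs of the genes called higher, with 4223 in control and 7246 in IR cells, 16120 and 27770 non-secretory CPM, a ratio of 1.72 (interval 1.66 to 1.79). Single cells ran from 0 to 0.542% of all UMIs with a median of 0.172% in the control, and from 0 to 1.07% with a median of 0.301% in the IR library. The ranges overlapped, and the median and both quartiles lay higher in the IR library, with quartiles of 0.118 and 0.242% against 0.207 and 0.454%. In B-cells the ratio was 1.09. Cd9, a tetraspanin of the cell surface, had 394 and 625 UMIs (1.59, 1.40 to 1.81) and a ratio of 0.982 in B-cells.

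Of 25 genes of the actin cytoskeleton 10 could be compared, and 2 were called higher and none lower, where 3.84% and 6.17% of all genes compared were called. Ratios were above 1 for 7 genes and below 1 for 3, the Arp2/3 subunits Arpc1b (0.756), Arpc1a (0.935) and Arpc3 (0.994). The list's sum went from 4168 to 5406 UMIs, a ratio of 1.30 (interval 1.25045 to 1.36), or 1.47 with counts per 1e6 UMIs of all genes, and its median gene stood at 1.252 against 1.02 for all genes. The called ones were Pfn1, profilin, which binds actin monomers, with 82 and 137 UMIs (1.68, 1.27 to 2.23), and Cfl1, cofilin, which severs filaments (1.52, 1.07 to 2.19). In B-cells these had ratios of 1.59 and 1.23. Tmsb4x, which sequesters actin monomers, had 1389 and 1973 UMIs (1.43, 1.33 to 1.53) against 0.969 in B-cells, and Actb 496 and 704 UMIs (1.43, 1.27 to 1.602) against 1.30, both short of 1.5 times on this scale. With counts per 1e6 UMIs of all genes both were called too, so that 4 of the 10 were higher, where 93 of 729 genes were.

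Of 17 genes of fluid secretion 8 could be compared, and 1 was called higher and none lower, against 3.84% and 6.17% over all genes, and the summed ratio was 0.889 (interval 0.831 to 0.951), or 1.01 over all genes. Aqp5 had 409 and 420 UMIs (1.03, 0.898 to 1.18). Kcnn4 had 404 and 341 UMIs (0.847, 0.732 to 0.981). Slc12a2, the sodium-potassium-chloride cotransporter NKCC1, had 96 and 88 UMIs (0.920, 0.681 to 1.24). Ano1, the apical chloride channel, had 60 and 41 UMIs, a ratio of 0.686 whose interval of 0.450 to 1.04 includes 1. The gene called higher was Car2, cytosolic carbonic anhydrase, with 41 and 64 UMIs (1.57, 1.04 to 2.38). No gene of the lists of receptors and calcium signalling (5 compared of 25), granule exocytosis (3 of 20), acinar transcription factors (5 of 24) or keratins and junctions (5 of 14) was called in either direction. When scaled by the UMIs of all genes, Calm2 of the receptor and calcium list was called higher, and no other gene of these lists was called. In these lists Ntrk2, a neurotrophin receptor, had a ratio of 0.881, Vamp8, a granule SNARE, 0.932, Xbp1, the regulator of ER expansion, 1.13, Elf5, an ETS factor, 1.12, Krt18 0.938 and Krt8 1.26.

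For ER protein handling 37 of 49 genes could be compared, with 3 called higher and 1 lower, against 3.84% and 6.17% over all genes, and a summed ratio of 1.004 (interval 0.971 to 1.04). The higher ones were Kdelr2, Hsp90b1 (the ER chaperone GRP94, 1.79, 1.21 to 2.68) and Atf4, a transcription factor of the stress response, with 105 and 158 UMIs (1.51, 1.17 to 1.95). The lower one was Erp29 (0.648). Scaled by the UMIs of all genes, 5 genes of the list were called higher, with Pdia3 and Manf added, and none lower. On that scale 93 of 729 genes compared were higher and 14 lower, and the list's summed ratio was 1.13. The most abundant members, Ssr4 and Sec61b of the translocon, had ratios of 0.983 and 0.770. P4hb, protein disulfide isomerase, had 179 and 123 UMIs (0.690, 0.544 to 0.873).

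Heat shock genes included 3 of 9 compared that were called lower and none higher, where 6.17% and 3.84% of all genes were, with a median of 0.992 and a summed ratio of 0.906, or 1.02 over all genes. Hspa1a, the inducible Hsp70, had 115 and 55 UMIs (0.480, 0.342 to 0.668), Hsp90aa1 a ratio of 0.666 and Hspe1 of 0.646. With counts per 1e6 UMIs of all genes 1 of the 3, Hspa1a, was still called lower. B-cells had ratios of 0.511, 0.430 and 0.581 for these genes, below 1 in both cell types. Of 10 immediate early genes compared 1, Klf2, was called higher (3.84% over all genes), and the most abundant, Jund and Atf3, stood at 1.24 and 1.20. The 2 p53 target genes with enough UMIs, of 28 listed, were not called (Btg2 0.984, Perp 1.28), and Cdkn1a, the cell cycle inhibitor p21, had 3 and 9 UMIs. Among antioxidants, Prdx1 was called higher with 120 and 186 UMIs (1.56, 1.23 to 1.97), the only call of 11 compared, against 3.84% higher over all genes. With counts per 1e6 UMIs of all genes Sod2 was called higher as well. Of the list of MHC class I and interferon genes 4 were compared and none was called. H2-K1 stood at 0.758, B2m at 0.788, H2-D1 at 0.790 and the interferon-induced Ifi27 at 1.18 (1.02 to 1.36), and the median was 0.789, against 0.784 in B-cells.

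Of the 45 lower genes 12 encoded ribosomal proteins (of 79 compared) and 10 nuclear subunits of oxidative phosphorylation (of 63), and no gene of either list was called higher, where 6.17% of all genes compared were called lower. With counts per 1e6 UMIs of all genes 1 ribosomal protein (Rpl41) and 3 of the subunits (Atp5k, Ndufa1 and Uqcr11) were still called lower, and 2 and 1 genes of these lists were called higher. The medians were 0.875 and 0.920, and the summed ratios of 0.895 and 0.881 became 1.01 and 0.996 over all genes. Rpl41 went from 2079 to 1084 UMIs (0.524, interval 0.486 to 0.564) and Rps29 from 1137 to 715 (0.631, 0.574 to 0.694). Rpl41 stood at 0.543 and Rps29 at 0.561 in B-cells. Lars2, mitochondrial leucyl-tRNA synthetase, had 109 and 44 UMIs (0.405, 0.279 to 0.580) against 0.401 in B-cells, and Gm42418, an rRNA-like transcript among the abundant genes, 3553 and 937 UMIs (0.265) against 0.313. Of 40 lower genes that could be compared in B-cells, 24 were also called lower there and 36 had a ratio below 1, whereas of all 647 genes compared in both cell types 47 (7.26%) were called lower in B-cells and 269 had a ratio below 1. Of 24 higher genes 2 were also called higher in B-cells and 16 had a ratio above 1, where 45 of the 647 (6.96%) were called higher and 378 had a ratio above 1.

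The lowest ratio of the 729 genes outside the abundant set was that of Wfdc12, a small protease inhibitor, with 542 UMIs in control and 169 in IR cells (0.313, interval 0.262 to 0.373). Its ratio, per UMI other than Smr3a, was 0.164 (0.118 to 0.223) in cells with Smr3a at 8% or more and 0.713 (0.4997 to 1.02) in those below 1%. Acot1, an acyl-CoA thioesterase, had 71 and 33 UMIs (0.467, 0.299 to 0.715). With 36 and 22, and 5 and 5 UMIs in B-cells these had too few UMIs to be compared there. The other lowest genes were Usmg5 (0.488), 2010107E04Rik (0.509), Atp5k (0.543) and Ndufa1 (0.545), small mitochondrial proteins or respiratory subunits, Tomm7 of the mitochondrial import pore (0.520), Sec62 of the ER translocon (0.541) and Tmem258 (0.542). In B-cells they stood at 0.538 (Usmg5), 0.656 (2010107E04Rik), 0.783 (Atp5k), 0.710 (Ndufa1), 0.508 (Tomm7), 0.540 (Sec62) and 0.751 (Tmem258), all below 1.

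Transcript length moved with these calls. The genes called lower had a median length of 568 bases, those called higher 1270 and all compared 1026, and 33 of 45 lower genes were shorter than 800 bases against 232 of 712 compared genes with a known length. Genes shorter than 500 bases had a median ratio of 0.765 (45 genes, 17 called lower), and 0.790 without ribosomal proteins (31 genes, 10 lower). The same short genes stood at 0.782 in B-cells. From 500 bases up the medians lay between 0.994 and 1.08, and the part of length in the calls was not tested.

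**Figure D4:**
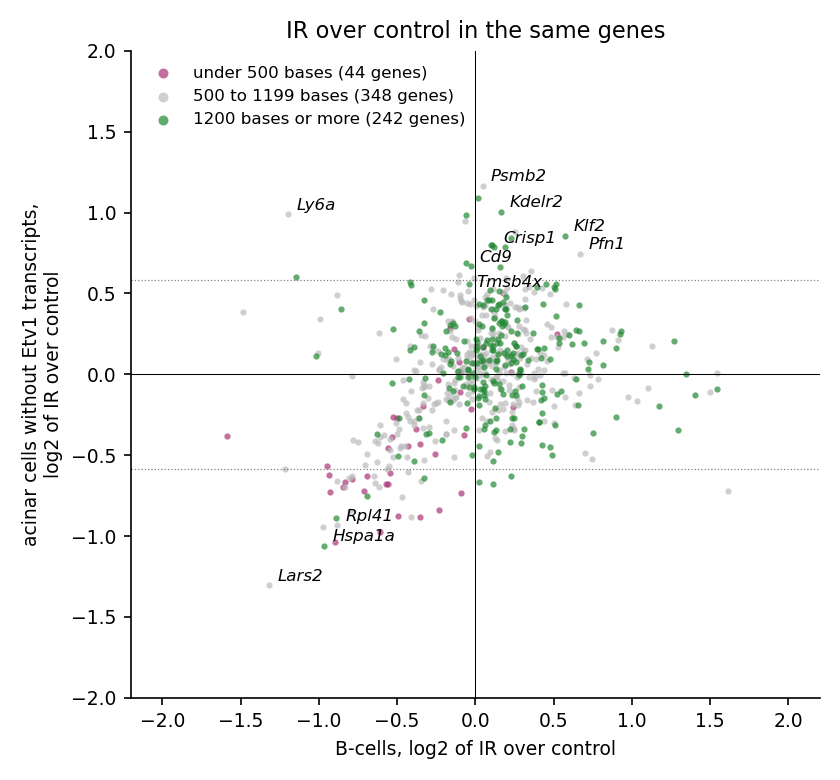
log2 of the IR over control ratio in acinar cells without Etv1 UMIs (vertical) against that in B-cells (horizontal) for 634 genes with values in both, coloured by transcript length; each point is 1 gene and dotted lines mark 1.5 and 0.667 times. Many short genes lay in the lower left, whereas Psmb2, Kdelr2, Crisp1 and Cd9 stood high in acinar cells and near 0 in B-cells.

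RNA of the mitochondrial genome, left out of that scale, was counted from 2610 UMIs in control and 4445 in IR cells, a ratio of 1.71 (interval 1.63 to 1.80), compared with 1.07 in B-cells. Per cell it had a median of 0.0366% of UMIs in control and 0.147% in IR cells. The highest cells reached 3.32% and 4.03%, so the groups overlapped. The gap varied with depth: cells with 2000 to 10000 UMIs had 0.162% in control and 0.366% in IR cells, those with 10000 UMIs or more 0.0937% and 0.113%, and the cells drawn to match the depth of Etv1-positive cells 0.118% and 0.1001%. The ribosomal RNA mt-Rnr2 had a UMI in 61.5% of the control and 92.6% of the IR cells, and mt-Cytb, a subunit of complex III, in 41.0% and 68.7%.

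Markers of other cell types were present at low levels, and their part in the results above was not tested. The 20 immune genes, of which 17 had a UMI, summed to 239 UMIs in control (0.0109% of UMIs) and 342 in IR cells (0.0178%). Cd74 was the most abundant with 66 and 106 UMIs, of which 1 cell in each library held 50% and 42.5%, and Igkc had 58 and 90. Both were called higher (1.61 and 1.56), while the B-cell genes Cd79a and Ms4a1 had 3 and 10, and 1 and 3 UMIs. Duct genes (12, of which 10 had a UMI) summed to 4134 and 1847 UMIs, 0.189% and 0.0959%. Dcpp1 was their largest with 3663 and 1407 UMIs, and in B-cells it had 30004 and 4150. Myoepithelial genes summed to 2 and 12 UMIs, with Krt5 at 0, and stromal and endothelial genes to 19 and 24, with Col1a1 at 0. Haemoglobins summed to 617 and 328 UMIs, and cell cycle genes to 53 and 47.

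The cells were last compared with the cells rich in the same secretory RNAs that had Etv1 UMIs, 128 control and 72 IR cells. As these were much deeper (medians of 31081.5 and 18640 UMIs), equal numbers were taken from each depth bin, 68 and 68 in the control and 53 and 53 in the IR library, with medians of 10448.5 against 10276.5 and 12139 against 10493 UMIs. Of 570 genes compared 38 (6.67%) were at least 1.5 times higher in the Etv1-positive cells of both libraries and 10 (1.75%) lower. With counts per 1e6 UMIs of all genes 49 were higher and none lower, and with at least 3 Etv1 UMIs, where 215 genes could be compared, 12 were higher and 14 lower. Since Etv1 chose the sets and rises with depth, these are descriptions of the 2 sets. The median gene stood at 0.896 (control) and 0.898 (IR).

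In the depth-matched sets the cells without Etv1 UMIs had less nuclear and mitochondrial RNA. Genes outside the abundant set made up 11.9% of their UMIs against 14.4% in the Etv1-positive cells of the control, and 13.8% against 15.5% in the IR library, where the medians of UMIs also still differed. Malat1 had 360 UMIs in them and 1652 in the Etv1-positive cells of the control library, 3467 and 12312 non-secretory CPM, a ratio of 3.55 (interval 3.17 to 3.99), and 127 and 2138 UMIs in the IR library, a ratio of 14.0 (11.7 to 16.9). These levels rested on few cells: among the cells without Etv1 UMIs 4 held 298 of the 360 control (82.8%) and 119 of the 127 IR UMIs (93.7%), and 28 of 68 and 12 of 53 had any. Without the 4 top cells of each set the ratios were 12.2 and 129, so their size is uncertain. Neat1, another nuclear RNA, had ratios of 12.5 (5.87 to 31.8) and 17.4 (8.61 to 40.9), with 7 and 8 UMIs in the cells without Etv1 UMIs. Mitochondrial RNA made up 0.118% of UMIs against 0.879% in the control, and 0.1001% against 0.883% in the IR library. The cells without Etv1 UMIs also had fewer genes, a median of 659.5 against 757 and of 740 against 914.

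Among the genes higher in Etv1-positive cells, Atp2a2, the calcium pump of the ER, had ratios of 7.27 and 9.64, Slc12a2 of 3.20 and 4.47 and the lectin chaperone Canx of 3.79 and 3.57. Errfi1, an inhibitor of the EGF receptor, stood at 11.6 (interval 4.31 to 44.0) and 7.11 (3.56 to 16.1). It had 4 and 9 UMIs in the cells without Etv1 UMIs. Thbs1, thrombospondin, had 58 UMIs against 1 and 64 against 2. Chka, choline kinase alpha, had 91 UMIs against 0 in the control and 68 against 1 in the IR library (56.5, interval 9.81 to 2265), and was left unranked because of the 0. Fosb, an immediate early gene, stood at 5.37 and 7.07, the unnamed Gm28438 at 7.05 and 7.65, the adhesion receptor Cxadr at 2.84 and 5.82 and the phosphatase Dusp5 at 4.86 and 3.25. Cells without Etv1 UMIs had 16 and 12 (Fosb), 18 and 10 (Gm28438), 12 and 8 (Cxadr) and 7 and 11 UMIs (Dusp5). Against 6.67% higher and 1.75% lower over all genes compared, immediate early genes had 4 of 12 higher in both libraries (Jun 1.78 and 1.89, Klf6 2.62 and 3.70), heat shock genes 3 of 9 (Hspa1b 2.84 and 3.96), fluid secretion 2 of 6 and ER protein handling 2 of 32, the last near the share of all genes. Ribosomal proteins had none higher and 3 of 79 lower, among them Rps26 (0.604 and 0.524), with medians of 0.815 and 0.750, and none was called lower with counts per 1e6 UMIs of all genes. The 10 lower genes, all of them lost on that scale, lay between 0.484 and 0.665: Rab25, Psma7, Gm8882, Arpc1b, Mrpl30, Ergic3, Bglap3, Rps26, Rpl15 and Rpl17. Kcnn4 (1.13 and 1.19), Xbp1 (1.247 and 0.956), Krt18 (0.921 and 1.36) and Ntrk2 (1.33 and 0.988) were not called.

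**Figure D5:**
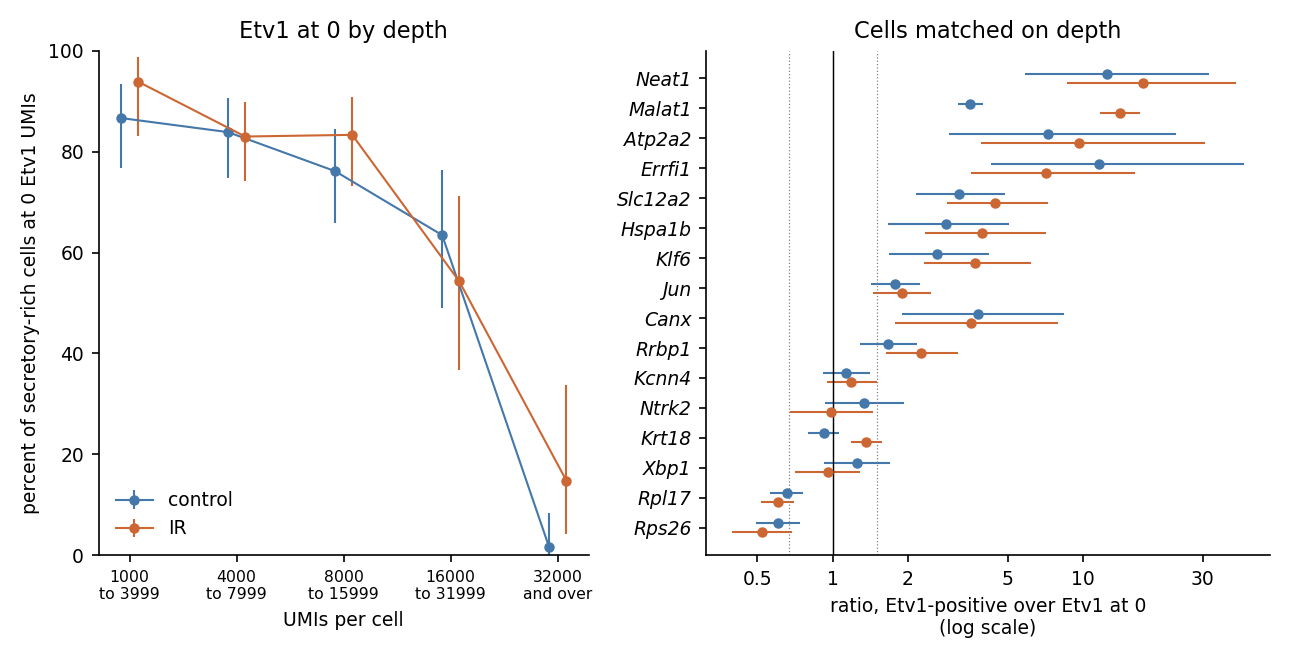
Left, percent of cells rich in secretory RNA that had 0 Etv1 UMIs, by UMIs per cell, in the control (blue) and IR library (orange), with exact 95% intervals. Right, ratio (log scale) of the level in Etv1-positive cells to that in cells at 0 Etv1 UMIs, matched on depth, with 95% counting intervals; dotted lines mark 1.5 and 0.667. The share at 0 dropped to 1.56% and 14.8% in the deepest bin, and Neat1, Malat1 and Atp2a2 stood far to the right while Kcnn4 stood near 1.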

How the data were processed

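The deposited values are raw UMI counts per gene and barcode that the authors made with Cell Ranger 3.0.1 on mm10 (GRCm38). How barcodes were called as cells is not given in the sources used here. All 5550 control and 7793 IR barcodes, with 22707876 and 23890757 UMIs, were read, rows of the same symbol were summed, and the rule was applied to the counts. The cells, gene lists and limits were chosen with earlier results of these data known. B-cells (743 control, 735 IR) served as the measure of free RNA.

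Counts were added up over the cells of a library. Secreted proteins are given as percent of all UMIs and other genes per 1e6 UMIs outside 75 abundant genes. With 1 library per group no test was run: a gene was called at 1.5 times or more, or 0.667 times or less, with at least 100 UMIs (50 for the Etv1 comparison). Intervals for shares are Clopper-Pearson, for levels exact Poisson and for ratios exact conditional binomial, all at 95%. Genes to name were taken from the rule genes, the 4 most abundant and any called gene of each list, the 12 highest and 12 lowest ratios, the 15 most abundant other genes, the 10 highest and 10 lowest in the Etv1 comparison and 13 that the study names. Not all of these are named, and others were singled out after their values were seen. Depth matching drew equal numbers from each doubling bin of UMIs with a fixed seed.

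Doublets were kept. Scrublet's own threshold marked 0.947% of control and 0.0189% of IR barcodes, too few for the call to be trusted, so leaving out the 6% with the highest scores was an alternative. The scripts were tested on simulated data. Python 3.11.15, numpy 2.4.6, scipy 1.17.1, scanpy 1.11.5, and edgeR 4.0.16 (R 4.3.3, for scaling factors) were used. A gene that the naming rule picked is not reported here.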

Additional observations from a re-analysis of the deposited data

Results flagged for a closer look

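Wfdc12 and Dcpp1 had opposite directions in the 2 libraries when cells with Smr3a below 1% of UMIs were set against cells at 8% or more, and this difference was not tested. Wfdc12, a small protease inhibitor, had a ratio of 0.453 (interval 0.335 to 0.602) in the control library and 1.97 (1.35 to 2.90) in the IR library, from 54 and 441 UMIs and from 82 and 45 UMIs. In the depth-matched cells its ratios were 0.919 and 1.36. Dcpp1, a demilune cell and parotid protein of the intercalated duct, had a ratio of 0.380 (0.332 to 0.434) in the control and 1.88 (1.67 to 2.13) in the IR library, from 244 and 2378 UMIs and from 723 and 415 UMIs. In the depth-matched cells its ratios were 0.185 and 1.36. Dcpp1 is also abundant in free RNA, with 30004 UMIs in control and 4150 in IR B-cells, and 1 cell held 29.2% of its UMIs in the control cells rich in Smr3a.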

How the results depend on the processing

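Some ratios crossed 1. Prol1's low over high ratio in the IR library went from 1.63 to 0.954 with high cells at 15% or more, and per 1e6 UMIs of all genes the summed IR over control ratios of fluid secretion (0.889), heat shock (0.906) and ribosomal genes (0.895) became 1.01, 1.02 and 1.01. The number of cells went from 244 control and 217 IR to 116 and 125 with at least 500 genes, to 126 and 86 with rule genes at 70% or more, and to 372 control cells with Etv1-positive cells included.

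Genes called higher in IR cells (28) numbered 17 with at least 500 genes, 43 with rule genes at 50%, 14 at 70%, 83 with Etv1-positive cells, 93 per 1e6 UMIs of all genes, 411 at 20 UMIs, 2 at 400 UMIs, 4 at 2 times, 124 at a looser limit on size, 16 without cells over 20000 UMIs and 47 with cells weighted equally. Those called lower (45) numbered 28 with rule genes at 70%, 136 with Etv1-positive cells, 14 per 1e6 UMIs of all genes, 306 at 20 UMIs, 15 at 400 UMIs, 5 at 2 times and 131 at the looser limit. Of the 28 and 45 genes, 16 and 34 were called again with cells matched on depth between libraries. With rule genes at 70%, where 347 genes could be compared, 5 and 15 were called again. Without cells over 20000 UMIs, with 552 genes compared, 10 and 32 were. Over all counts and shares that answer a comparison, 55 values under an alternative stayed within 1.5 times (counts) or the 95% interval (shares) and 39 moved. For IR over control ratios of single genes, 582 stayed within the reported 95% interval and 87 moved.

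In the Etv1 comparison the 38 higher and 10 lower calls became 169 and 16 without depth matching, 24 and 5 when matched on UMIs outside the abundant genes, 20 and 0 at 2 times and 6 and 4 at 200 UMIs. Per 1e6 UMIs of all genes 49 were higher and 0 lower, and with at least 3 Etv1 UMIs, of 215 genes compared, 12 were higher and 14 lower (8 and 2 of them among the reported calls), so that lower calls outnumbered higher ones. The 3 genes lower in cells poor in Smr3a (Malat1, Fos, Jun) became 5 with a limit of 2% (2 of the 3, without Jun), 13 with high cells at 15% or more (2 of the 3, without Fos), 5 without top cells (all 3), 2 with a limit of 0.5% or with UMIs outside the abundant genes as total (without Jun in each) and 0 when matched on depth, where 154 instead of 313 genes had enough UMIs and Malat1 ratios were 0.242 and 0.146 (these Smr3a settings, the calls per list over all genes and the ratios without 4 top cells were chosen after seeing the data). With rule genes at 70%, 3.17% of control and 18.6% of IR cells had Smr3a below 1%.

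No paired analysis was possible because each group had 1 library with no replicate number. There was also no replicate to leave out. A median of 771.5 and 900 UMIs per cell outside the abundant genes limits the comparison to 729 genes.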

Other observations

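Some further genes, several of which the study names for acinar cells, had the following values on the scale without abundant genes. Nucb2, nucleobindin, had 342 UMIs in control and 240 in IR cells, a ratio of 0.705 (interval 0.595 to 0.833). Tcn2, the vitamin B12 carrier transcobalamin, had 758 and 742 UMIs, a ratio of 0.983 (0.887 to 1.09). Ptma, prothymosin alpha, had 313 and 434 UMIs, a ratio of 1.39 (1.20 to 1.62). Rpsa, a ribosomal protein also known as the laminin receptor, had 1535 and 1391 UMIs, a ratio of 0.910 (0.846 to 0.979). Eef1a1 and Tpt1, translation factor and translationally controlled protein, were among the most abundant of the other genes and had ratios of 0.995 and 1.05. Of these genes Ptma, Rpsa, Eef1a1 and Tpt1 were among the 729 compared, and none of them was called.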
